A study of Mus musculus with 16 samples.

Results

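The cytosolic ribosomal protein genes were described in mouse liver across 4 diets. They were taken by gene name, as symbols that start with Rpl or Rps and a digit, together with Rplp0, Rplp1, Rplp2 and Rpsa. Copies whose names end in -ps and the Rps6k kinases were left out, and a gene had to reach 1 TPM (a transcript's share of its library, scaled for length) in at least 4 of 16 libraries. Of 22612 genes in the deposited table, 86 matched by name and 83 were kept. They covered 77 of the 79 proteins of the cytosolic ribosome, 31 of the small and 46 of the large subunit. Fau, which encodes a small subunit protein fused to a ubiquitin-like domain, carries another name and was not among them. The 6 remaining genes were the paralogs Rps27l, Rpl36al, Rpl22l1, Rps27rt and Rpl7l1, and Rps19bp1, which encodes a binding partner of Rps19 and not a ribosomal protein. The genes just inside the level threshold were Rps19bp1, with a mean of 26.2 TPM over the 16 libraries, and Rps15a, with 30.8 TPM. Those just outside it were Rpl39l, with 0.039 TPM, Rpl3l, with 0.038 TPM, and Rpl10l, which was listed at 0 in every library.

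Livers came from male C57BL/6 mice, bought at 7 weeks of age, kept for 1 week before the diets began and fasted overnight before collection. A chow diet (11% of energy from fat) or a high-fat diet (58%) was given for 16 weeks. Chow-alternating mice were switched between the high-fat diet and chow every 2 weeks. Ketogenic-alternating mice were switched at the same interval between the high-fat diet and a ketogenic one (90.5% of energy from fat). The study had 6 mice per group and 4 libraries per group, and the labels give neither the animal behind each library nor the last diet of the alternating groups, so p-values measure the spread between these libraries only.

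Each ribosome carries a single copy of most ribosomal proteins, and the genes are therefore expressed at similar levels and tend to be adjusted together. Their mRNAs are short and abundant and begin with a run of pyrimidines, the terminal oligopyrimidine (TOP) tract, through which the nutrient-sensing kinase mTORC1 controls their translation. In liver, the content of ribosomes is known to follow feeding and fasting, and mRNA levels do not report translation.

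Runs of pyrimidines were looked for in the stretch of bases around the listed start site. RefSeq windows (assembly GRCm38.p6, the same coordinates as mm10) were found for 63 of the 83 genes, and the first window listed for a gene was used. The lines below give 30 bases, 15 before and 15 from the listed start, 5′ to 3′ on the gene's strand, with the longest run of C and T in capitals. The first 3 hold the longest runs of the family, the next 2 are the genes called by a test below, then follow the 2 with the highest and the 2 with the lowest correlation with the family profile among genes with a window.
Rpl7a, chr2:26910792-26910821, plus strand: aTTCCCTCTTCTTTCTTTCTCCagcagccg
Rpl27a, chr7:109519180-109519209, plus strand: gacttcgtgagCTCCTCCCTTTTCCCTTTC
Rpl35, chr2:39005117-39005146, minus strand: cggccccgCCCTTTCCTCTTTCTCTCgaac
Rpl22l1, chr3:28805493-28805522, plus strand: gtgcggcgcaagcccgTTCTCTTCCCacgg
Rps25, chr9:44407699-44407728, plus strand: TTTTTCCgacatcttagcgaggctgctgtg
Rpl23, chr11:97782425-97782454, minus strand: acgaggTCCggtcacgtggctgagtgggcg
Rpl37a, chr1:72711245-72711274, plus strand: TTCCgctcgccggtctaaaaccgcgcatgc
Rplp0, chr5:115559452-115559481, plus strand: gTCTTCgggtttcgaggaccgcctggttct
Rpl7l1, chr17:46782642-46782671, minus strand: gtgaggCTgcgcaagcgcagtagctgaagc

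The run was 21 bases long in Rpl7a, 19 in Rpl27a, 18 in Rpl35, 10 in Rpl22l1 and 7 in Rps25. A pyrimidine run of at least 10 bases lay in 17 of 63 windows of the family (27.0%). It lay in 5.48% of 8866 windows of other genes that passed the same 1 TPM threshold and in 5.19% of all 27025 windows. On the opposite strand such a run occurred in 0 of 63 windows, against 4.99% of the other expressed genes. In the full 300 bases, from 250 before to 50 after the start, and reading both strands, CCGGAAG, a binding motif of ETS-family factors, occurred in 38.1% of the family and 18.7% of the other expressed genes. CTTTC, which overlaps the pyrimidine runs, occurred in 82.5% against 52.6%, AAGATGGC, the YY1 core, in 7.94% against 4.87%, and TATAAA in 9.52% against 7.32%. These are matches of letters at listed starts, and the starts used in these livers were not measured. A counted run could lie wholly before the listed start, so these are not counts of TOP tracts.

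The ribosomal protein genes were among the abundant transcripts of the liver and lay close together. Their median level was 381 TPM, 65 of the 83 lay between 200 and 700 TPM, and the medians of the small and the large subunit were 389 and 392 TPM. Because TPM is scaled per length, levels can be compared between genes. The 4 highest were Rplp1 (mean 1100 TPM), an acidic protein of the P stalk that recruits elongation factors, Rpl13a (927 TPM), Rpl10 (895 TPM) and Rps2 (887 TPM). The 4 lowest were Rps19bp1, Rps15a, Rpl7l1 (32.4 TPM) and Rps27rt (59.8 TPM), of which only Rps15a encodes a core protein. For Rps15a the most abundant transcript model was 5179 bases long, and for Rps20, at 74.1 TPM, it was 3706 bases, against a median of 761 bases in the family. A level per length depends on which model received the reads. Ribosomal protein genes have many near-identical copies in the genome, and reads were divided among them by estimation. For example, the copy Rps12-ps3 was listed at a mean of 228 TPM and Rpl10-ps3 at 58.1 TPM. Levels of single members with such copies are therefore uncertain.

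Within the P stalk, Rplp0, the anchor of the stalk on the large subunit, had a mean of 513 TPM, Rplp1 1100 TPM and Rplp2 221 TPM, although the assembled stalk holds Rplp1 and Rplp2 in equal numbers. Rpl5 and Rpl11, which bind the 5S rRNA and, outside the ribosome, the p53 regulator Mdm2, were at 183 and 530 TPM. Among the paralogs, Rps27l (458 TPM) and Rpl36al (353 TPM) were at the level of core genes. Rpl22l1 was at 71.0 TPM beside 153 TPM for Rpl22, its close relative.

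The summed level of the 83 genes took 3.09, 3.93, 3.78 and 4.26% of all TPM in the chow libraries and 3.29, 2.93, 3.26 and 2.96% in the high-fat libraries. It took 3.53, 3.59, 3.52 and 3.30% in the chow-alternating and 3.37, 3.0, 2.77 and 3.44% in the ketogenic-alternating libraries. Of the chow libraries 3 were above all 12 others, and chow replicate 1 was within the range of the high-fat group. Group means were 3.77 ± 0.496% (SD, n = 4) in chow, 3.11 ± 0.191% in high-fat, 3.48 ± 0.128% in chow-alternating and 3.15 ± 0.316% in ketogenic-alternating livers. In bulk tissue, fewer cells of a type and less RNA per cell cannot be told apart.

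**Figure D1:**
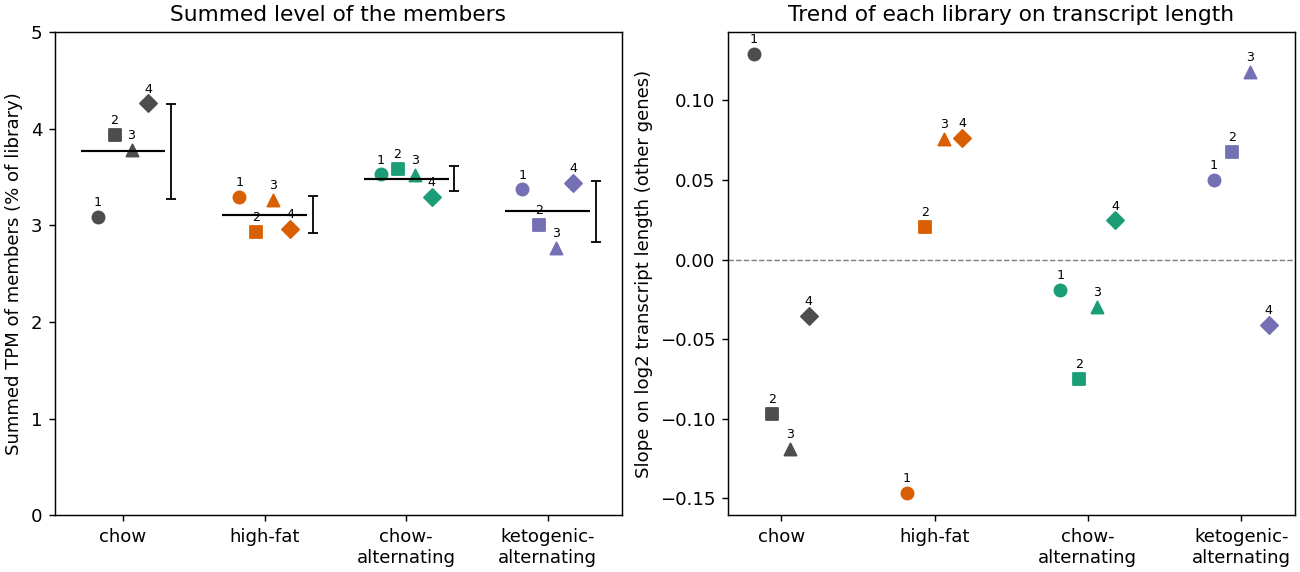
Left, summed TPM of the 83 ribosomal protein genes as a percent of each library, by diet group (points, numbered by replicate; line, mean; whisker, SD, n = 4). Right, slope of each library's log2 deviations on log2 transcript length over genes outside the family. Chow replicate 1 is the lowest chow library on the left, at 3.09%, and the highest of all 16 on the right, at 0.13.

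Of the libraries that stood apart from their groups, 3 are described first. Chow replicate 1 had a low share of the family, and its values rose with transcript length: the slope of its log2 deviations on log2 length, over genes outside the family, was 0.13, while the other chow libraries had -0.10, -0.12 and -0.04. High-fat replicate 1 also had a slope unlike its group, -0.15 against 0.02 to 0.08. High-fat replicate 2 had the widest spread inside the family, with quartiles of the members' log2 deviations from their own means at -0.49 and 0.06. There Rpl28, a large subunit protein, was at 125 TPM against 325 to 462 TPM in the other high-fat libraries, and Rpl22 at 303 TPM against 120 to 143 TPM. The comparisons that use these libraries are given below with and without them. The share of TPM in the 20 highest genes ranged from 27.1 to 38.8% and that of mitochondrially encoded genes from 8.61 to 18.4%. Chow replicate 3 was highest in both. The mitochondrial share was 13.6, 18.4 and 11.3% in chow replicates 2, 3 and 4, above every other library, and 10.2% in chow replicate 1. Ketogenic-alternating replicate 4 had a length slope of -0.04, against 0.05 to 0.12 in the rest of its group. Depth is unknown because TPM keeps none.

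The members of the family varied together from library to library. The Pearson r of a gene with the median profile of the family over 16 libraries had a median of 0.75, and 66 of 83 genes were above 0.5. For other genes that reached 1 TPM in at least 4 libraries the median r was -0.17 and 8.96% were above 0.5. Those genes were not matched to the family in level or length. Each member is part of the profile it was compared with, all points share library composition, and these r are a description. Chow replicate 4 held the highest value of 50 of the 83 genes, and the lowest value fell in ketogenic-alternating replicate 3 for 32 genes and in high-fat replicate 2 for 27. Rps20 (r = 0.97), a small subunit protein, Rpl23 (0.96) and Rpl37a (0.96), both of the large subunit, followed the profile most closely. Only Rpl3 (r = -0.43), a core protein near the catalytic centre of the large subunit, and the paralog Rpl7l1 (-0.02) were below 0. Rplp0 (0.02), Rps4x (0.03), a small subunit protein, and Rpl5 (0.11) were close to 0.

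**Figure D2:**
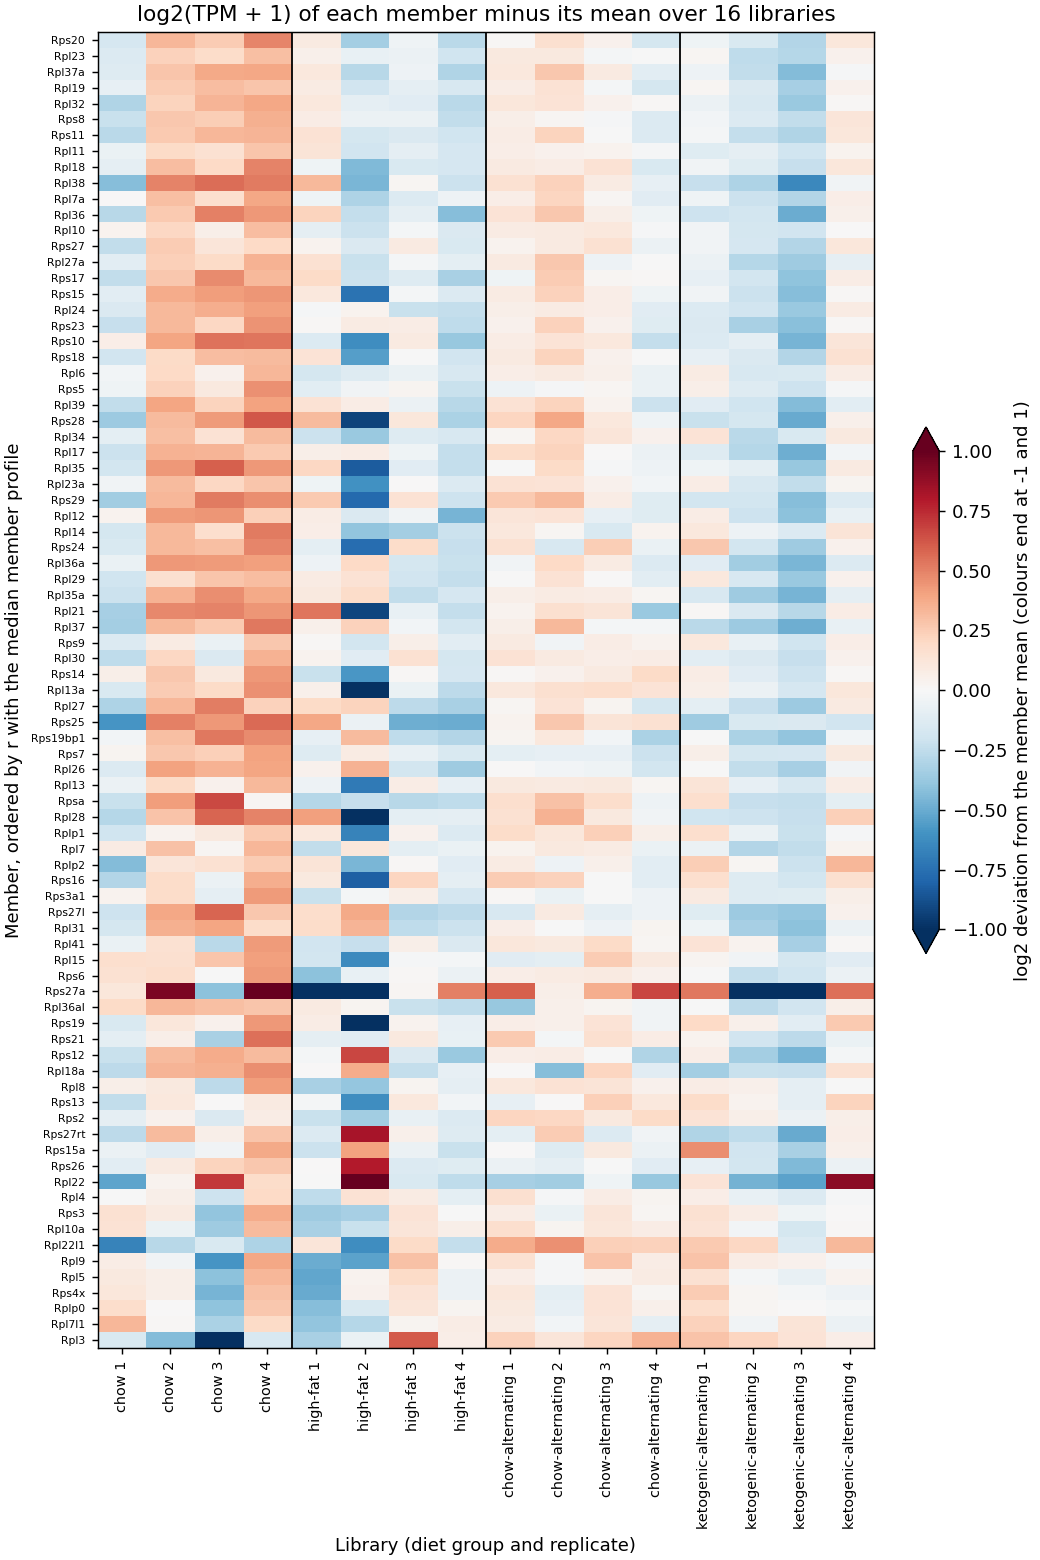
Each row is a ribosomal protein gene, each column a library (4 per diet group), and colour is log2(TPM + 1) minus the gene's mean over 16 libraries. Rows are ordered by r with the median profile of the family. Most rows are red in chow replicates 2 to 4 and blue in ketogenic-alternating replicate 3, and Rpl3 at the bottom has its lowest value in chow replicate 3.

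The outside genes whose profiles were most like the median of the family were Eif3h (r = 0.93 over 16 libraries), a subunit of the initiation factor eIF3, Rpl10-ps3 (0.89), a copy of Rpl10, and Bst2 (0.89), the antiviral membrane protein tetherin. Ribosomal components outside the name rule behaved similarly: r was 0.75 for Fau (731 TPM) and 0.58 for Rack1 (301 TPM), a scaffold protein of the small subunit. Diet group accounted for a median of 35.6% of each member's variance over the libraries, against 28.04% for other genes. When no group differs, 20% is the expected mean and not the median. Among members the highest value was that of Rps2, 73.3%, and the lowest that of Rps15a, 1.4%.

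In the first comparison, of the high-fat diet with chow, 78 of 83 ribosomal protein genes had a log2 fold change below 0, and the median was -0.26. Over all 10960 genes tested, 58.6% were below 0 and the median was -0.05. No ribosomal protein gene passed limma's test at an adjusted p below 0.05, while 1.06% of all genes did. At an unadjusted p below 0.05 there were 13, all lower, against 7.4% of all genes lower at that level, and for 8 genes the high-fat libraries lay wholly below the chow libraries (5.73% of all genes). Small and large subunit genes had almost the same medians, -0.27 and -0.26. Rps10, a small subunit protein near the mRNA path, was at 397, 499, 555 and 551 TPM in chow and 346, 247, 404 and 292 TPM in high-fat livers, so that the groups overlapped by a single library. Its log2 fold change was -0.65 (SE 0.19, limma adjusted p = 0.185). Rpsa, a small subunit protein that also occurs as a laminin receptor, was at 349, 544, 645 and 413 TPM in chow and 334, 348, 336 and 341 TPM in high-fat livers. Its groups did not overlap, and the test was not passed (-0.48 on the log2 scale, SE 0.19, adjusted p = 0.353). The lowest log2 fold change was that of Rps27a (-0.85) and the highest that of Rpl3 (0.55). Without chow replicate 1 the median was -0.37, and without high-fat replicates 1 and 2 in turn it was -0.28 and -0.24. With the length trend removed it was -0.16. These fits called 0 members and, in that order, 0.758, 0.772, 0.368 and 2.26% of all genes. Without high-fat replicate 2 Rps27a was at -0.63. Kupffer cell markers had log2 fold changes above 0 for 9 of 10 genes, with summed levels of 184 to 436 TPM in chow and 250 to 477 TPM in high-fat livers, and their part in the result was not tested.

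Replacing the continuous high-fat diet by alternation with chow went with the opposite lean. In chow-alternating against high-fat livers, 74 of 83 genes were above 0 (54.7% of 10899 genes tested), with a median log2 fold change of 0.16 against 0.02 for all genes. By limma 0 passed, as did 0.0459% of all genes, and 8 were higher at an unadjusted p below 0.05 (1.88% of all genes). Groups did not overlap for 10 genes, all higher, against 1.78% of all genes. Among them was Rps2, a core protein of the mRNA entry channel, at 757, 693, 839 and 802 TPM in high-fat and 1022, 1016, 943 and 1006 TPM in chow-alternating livers. Its log2 fold change was 0.37 (SE 0.12), yet the adjusted p was 1.00. Rpsa, at 458, 499, 461 and 393 TPM in chow-alternating livers, was above each of the 4 high-fat values given before, and differed by 0.41 on the log2 scale (SE 0.12, adjusted p = 0.982). The extremes were Rps27a (0.84) and Rpl22 (-0.44), which were at 0.62 and -0.14 without high-fat replicate 2. The median was 0.12 without that library, 0.18 without high-fat replicate 1 and 0.075 after quantile normalization. All 10 Kupffer cell markers (median -0.45) and all 8 sinusoidal endothelial markers (-0.19) were below 0, and all 5 red blood cell markers tested were above 0 (0.42). None of them passed, and their part in the result was not tested. This comparison shares its high-fat libraries with the preceding one, so the opposite signs are not independent of each other.

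Between ketogenic-alternating and high-fat livers the genes were divided, with 43 above and 40 below 0. The median log2 fold change was 0.01, and it was -0.08 after quantile normalization, -0.06 after rescaling without mitochondrial and the 20 highest genes, -0.01 when high-fat replicate 2 was left out and 0.04 when replicate 1 was. All genes, in contrast, leaned upward in this comparison, with 83% above 0 and a median of 0.21, a shift that quantile normalization removed (median 0.01). Relative to that shift the median of the family was -0.20. None of the 83 passed limma's test (0.036% of all genes did), and 0 had an unadjusted p below 0.05, against 10% of all genes. The groups did not overlap for Rps2 alone, which was higher (6.3% of all genes). Rps19, the gene most often mutated in Diamond-Blackfan anaemia, had the highest log2 fold change, 0.36 (SE 0.24), with values of 344, 156, 335 and 309 TPM in high-fat and 377, 340, 304 and 393 TPM in ketogenic-alternating livers. The groups overlapped, and only high-fat replicate 2 lay far from the rest. Rps27rt had the lowest, -0.40 (SE 0.22). Without high-fat replicate 2 Rps19 was at 0.096 and Rps27rt at -0.18. All 9 stellate cell markers were above 0 (median 0.27), while all 5 red blood cell markers (-0.33) and all 5 B and plasma cell markers (-0.39) were below 0, and their part in the result was not tested.

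The alternating regimens, compared directly, differed in whether the high-fat diet took turns with the ketogenic diet or with chow. In ketogenic-alternating against chow-alternating livers, 72 of 83 genes were below 0, with a median of -0.14, whereas only 20.5% of 11002 genes were below 0 and their median was 0.19. Limma called 1 member, Rps25, lower, with 5.04% of all genes called and 0.727% called lower. At an unadjusted p below 0.05 there were 18, all lower, against 3.33% of all genes lower, and for 7 the groups did not overlap (2.06% of all genes lower). The extremes were Rps27a (-0.86) and Rpl22 (0.28), neither of which passed. Rpl22 was at -0.017 without ketogenic-alternating replicate 4 and at 0.78 with the length slope of each library as a covariate. Rps25, a small subunit protein needed for initiation at some internal ribosome entry sites, lies on chromosome 9 (chr9:44407139-44410427, plus strand). It was at 423, 499, 451 and 459 TPM in chow-alternating and 323, 372, 374 and 362 TPM in ketogenic-alternating livers. The groups did not overlap, and the log2 fold change was -0.36 (SE 0.09, adjusted p = 0.0429). The call was lost in 13 of 16 alternative analyses, in which its log2 fold change ranged from -0.42 to -0.31 and its adjusted p from 0.0262 to 0.428. Rpl35a, Rpl37 and Rps29 had log2 fold changes of -0.33, -0.39 and -0.37 with groups that did not overlap, and adjusted p of 0.0686, 0.0701 and 0.0770. Without ketogenic-alternating replicate 4, 11 members were called lower, when 23% of all genes were called and 1.67% were called lower. In the same comparison all 10 Kupffer cell markers were above 0 (summed levels of 220 to 296 TPM in chow-alternating and 197 to 666 TPM in ketogenic-alternating livers). Of 8 sinusoidal endothelial markers 2 were called higher, Oit3 (0.81, SE 0.13, adjusted p = 0.0106) and Clec4g (0.69, SE 0.16, adjusted p = 0.0418), all 5 red blood cell markers tested were below 0 (median -0.86), and the summed hepatocyte markers were at 108352 to 118225 TPM and 90413 to 95777 TPM. Their part in the result was not tested.

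Both alternating regimens were then set against chow, which they share as the reference. In chow-alternating livers 66 of 83 genes were below 0 and the median was -0.12 (57.2% and -0.04 for all 10862 genes). Limma called 1 member, Rpl22l1, higher (1.16% of all genes called, 0.644% higher), and 7 had an unadjusted p below 0.05 (12.3% of all genes). Groups did not overlap for 3 higher members, Rpl3, Rpl22l1 and Rps2 (2.94% of all genes), and for 2 lower ones, Rpl36al and Rps7, a small subunit protein (5.54%). The extremes were Rpl3 (0.71) and Rpl22 (-0.37). In ketogenic-alternating livers 73 genes were below 0 and the median was -0.29, while 31.2% of all 11091 genes were below 0 with a median of 0.15. There 0 members passed, against 5.0% of all genes, and 28 were lower at an unadjusted p below 0.05, against 5.84% of all genes. Groups did not overlap for 5 lower members (3.98% of all genes) and for 2 higher ones, Rpl3 and Rpl22l1 (9.34%). The extremes were Rpl3 (0.65) and Rps27a (-0.87). Rpl36a, a large subunit protein at the tRNA exit site, was at 318, 450, 448 and 442 TPM in chow and 307, 261, 242 and 302 TPM in ketogenic-alternating livers. The groups did not overlap, and the fold change was -0.57 on the log2 scale (SE 0.15, adjusted p = 0.0558). All 10 Kupffer cell markers (median 0.79), all 8 sinusoidal endothelial markers (0.49) and 8 of 9 stellate cell markers (0.46) were above 0, and none of them passed. Of 10 hepatocyte markers Apoa1 was called higher and Ttr and Tat were called lower. The part of these markers in the result was not tested.

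The count of calls in ketogenic-alternating against chow livers rested on chow replicate 1. Without that library 30 of 83 members passed limma's test, 29 lower and Rpl3 higher, when 14.8% of all genes were called and 2.72% were called lower. The 29 had log2 fold changes from -0.83 to -0.46. They included Rps25 (-0.71, SE 0.12, adjusted p = 0.00604), Rpl38 (-0.83, SE 0.15, adjusted p = 0.00792), a large subunit protein that mice need for normal axial skeleton patterning, and Rpl36a (-0.69, SE 0.13, adjusted p = 0.00945). The median became -0.37, and it was -0.15 with the length slope as a covariate and -0.42 after rescaling without mitochondrial and the 20 highest genes. Leaving out any of the other 7 libraries gave 0 calls, when 1.66 to 4.85% of all genes were called. In chow-alternating against chow livers the median was -0.24 without chow replicate 1 and -0.056 with the length trend removed. Without chow replicate 1, 1 member was called higher and 1 lower, against 1.37% and 0.883% of all genes. The F test of any diet difference over all 16 libraries called 0 members (3.87% of all genes) and 22 at an unadjusted p below 0.05 (19.9%). Without chow replicate 1 it called 4 (4.6% of all genes). The 6 comparisons share groups of libraries and are not independent of each other.

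**Figure D3:**
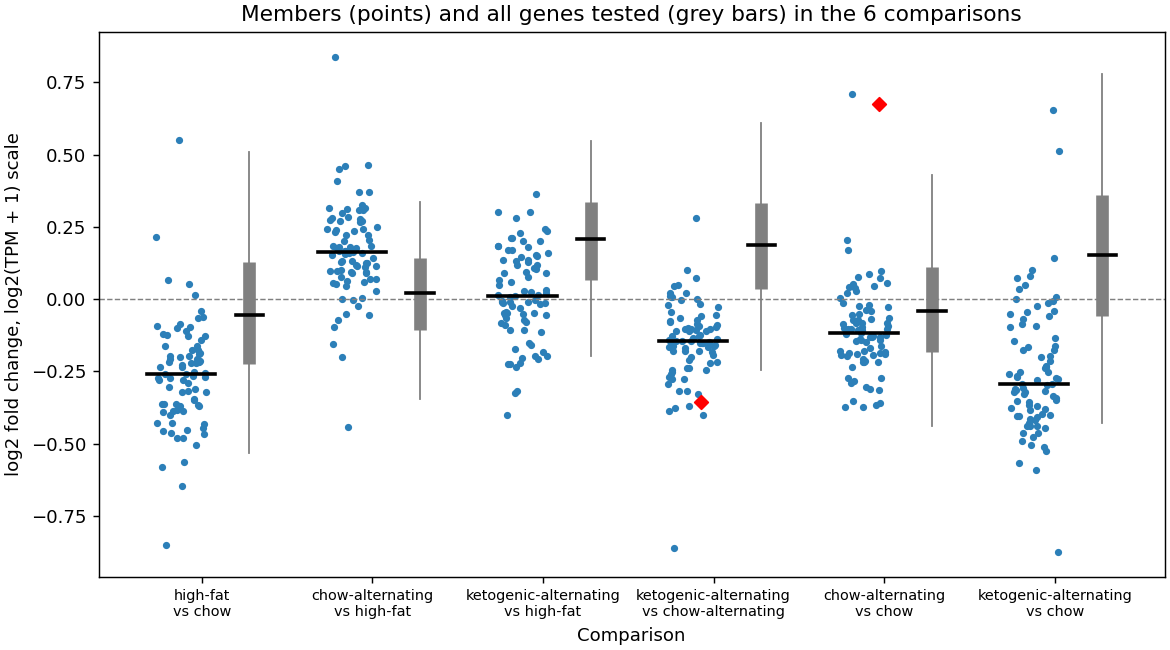
Log2 fold changes of the 83 ribosomal protein genes (points; black line, median) in each comparison, beside all genes tested (thick bar, 25th to 75th percentile; thin line, 5th to 95th; black line, median). Red diamonds mark the members that passed limma's test, Rps25 (-0.36) and Rpl22l1 (0.68). The medians of the family are -0.29 in ketogenic-alternating against chow and 0.16 in chow-alternating against high-fat livers.

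Ribosomal protein transcripts are short, and the libraries carried trends on transcript length, so fold changes were set beside those of equally short genes. In 62 of the 83 members the most abundant transcript was under 1000 bases, against 8.03% of other genes, whose median was 2811 bases. In ketogenic-alternating against chow livers, other genes had a median of -0.18 under 500 bases, 0.04 from 1000 to 1500 bases and 0.23 above 5000 bases. The 15 members under 500 bases had a median of -0.44 and the 11 members of 1000 to 1500 bases one of -0.20. The trend thus ran through both, with the family below other genes in each of these classes. Measured against the median of other genes in its own length class, a member was at -0.24 in the median, and 71 of 83 were below.

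The same distance, from other genes of equal length, was -0.14 in high-fat against chow livers (69 of 83 below) and 0.11 in chow-alternating against high-fat livers (70 above). In ketogenic-alternating livers it was -0.16 against chow-alternating (78 below) and -0.08 against high-fat livers (62 below). It was least in chow-alternating against chow livers, -0.04 (56 below). The distance to all genes without regard to length was further from 0 in each of the 6 comparisons, for example -0.44 in ketogenic-alternating against chow and -0.33 against chow-alternating livers. When each library's fitted trend on length was removed before the test, 9 members were called in ketogenic-alternating against chow livers, 8 of them lower, when 9.34% of all genes were called and 4.74% lower. Against chow-alternating livers 2 were called lower, as were 1.61% of all genes. With the slope of each library as a covariate instead, the median against chow-alternating livers was -0.01 and 0 members were called (0.854% of all genes). The corrections for length thus gave different counts of calls in the ketogenic-alternating comparisons.

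**Figure D4:**
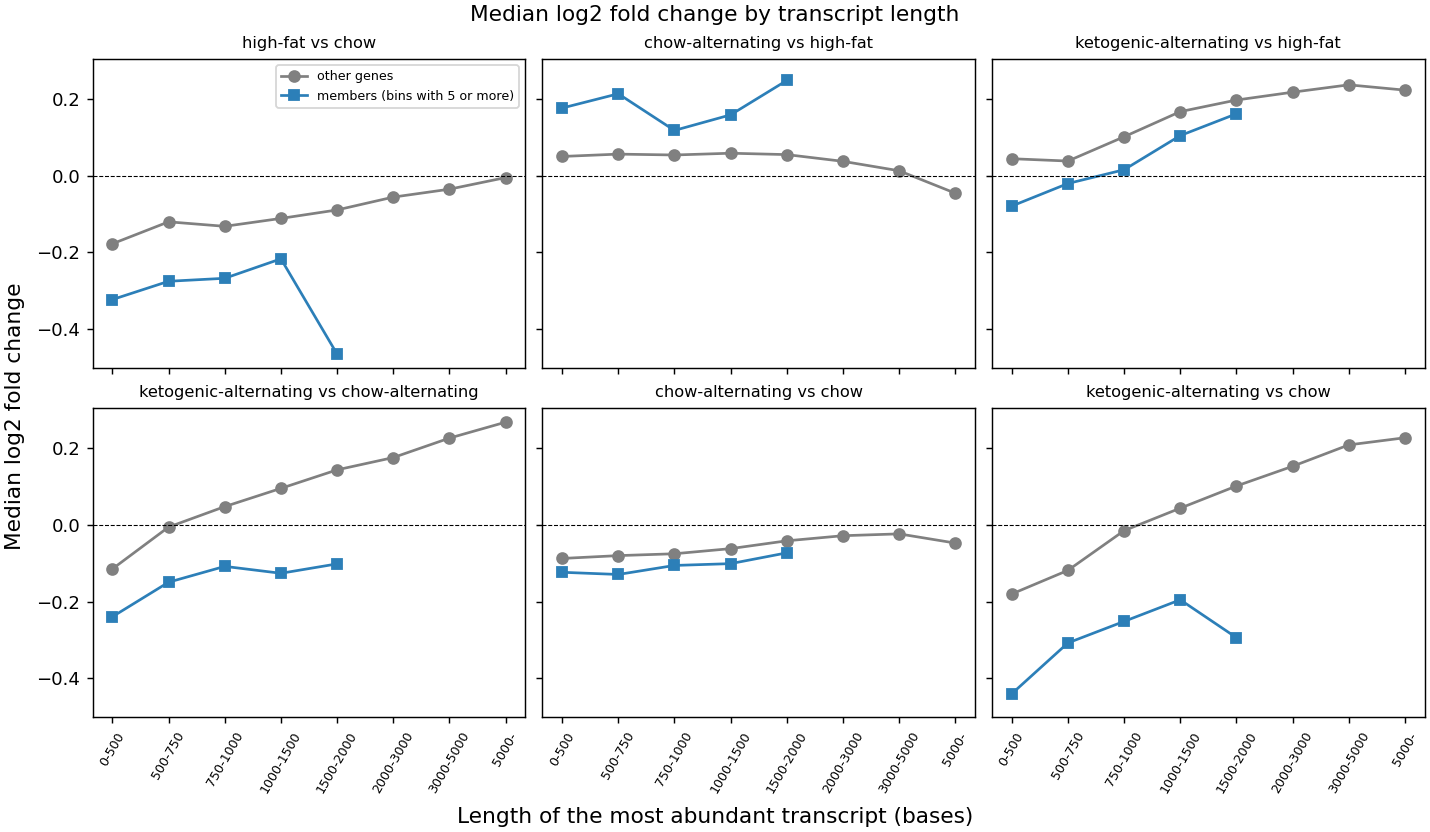
Median log2 fold change by length of the most abundant transcript, for other genes (grey) and for ribosomal protein genes in classes with at least 5 members (blue), in each of the 6 comparisons. In ketogenic-alternating against chow livers other genes go from -0.18 under 500 bases to 0.23 above 5000 bases, and the members under 500 bases are at -0.44.

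A few members did not follow the family. Rpl22l1 (chr3:28805436-28807415, plus strand), a paralog that Rpl22 protein is known to repress by binding its RNA, was at 43.3, 56.8, 62.1 and 55.7 TPM in chow livers. It was at 89.7, 95.2, 81.8 and 81.5 TPM in chow-alternating livers, so that the lowest of these was above the highest chow value. The means were 54.5 ± 7.99 and 87.1 ± 6.64 TPM (SD, n = 4), and the log2 fold change was 0.68 (SE 0.14, limma adjusted p = 0.0407). The call was lost in 11 of 19 alternative analyses, which include the fit without chow replicate 1 a second time. In these 19 the log2 fold change ranged from 0.57 to 0.81 and the limma adjusted p from 0.00454 to 0.130. In ketogenic-alternating livers it was at 83.1, 79.9, 62.7 and 86.8 TPM, all above the chow values, with a log2 fold change of 0.51 (SE 0.16) that did not pass (adjusted p = 0.0869). The high-fat values of 75.2, 44.6, 79.1 and 58.4 TPM overlapped with chow.

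Rpl22 itself was at 99.2, 147, 235 and 163 TPM in chow and 143, 303, 129 and 120 TPM in high-fat livers. It was at 114, 113, 140 and 110 TPM in chow-alternating and 158, 103, 98.7 and 269 TPM in ketogenic-alternating livers. No comparison passed, and the spread within chow, high-fat and ketogenic-alternating livers was wide, at an SD of 56.4 to 86.5 TPM. In high-fat replicate 2 the pair stood at opposite ends of their group, with the highest Rpl22 value and the lowest Rpl22l1 value, 44.6 TPM. In some other libraries they stood at the same end. Both genes were highest of their group in chow replicate 3 and ketogenic-alternating replicate 4. Both were lowest in chow replicate 1, chow-alternating replicate 4 and ketogenic-alternating replicate 3. In chow-alternating replicate 3 Rpl22 was highest of its group (140 TPM), while Rpl22l1 was at 81.8 TPM. The highest Rpl22l1 value of that group, 95.2 TPM, was in replicate 2. In high-fat livers the lowest Rpl22 value was in replicate 4 (120 TPM) and the highest Rpl22l1 value in replicate 3 (79.1 TPM). A relation between the pair was not tested.

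Rpl3 (chr15:80077794-80082583, minus strand) was lowest in chow, at 220, 180, 108 and 218 TPM. It was at 195, 233, 374 and 256 TPM in high-fat livers, 287, 266, 284 and 311 TPM in chow-alternating livers and 298, 283, 269 and 256 TPM in ketogenic-alternating livers. Both alternating groups lay above every chow library. The log2 fold changes against chow were 0.71 (SE 0.20, adjusted p = 0.149) and 0.65 (SE 0.21, adjusted p = 0.0959), and neither passed. Without chow replicate 1 the second had an adjusted p of 0.0335.

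Rps2 had the largest part of its variance between groups, with means of 865 ± 63.3 TPM in chow, 773 ± 62.6 TPM in high-fat, 997 ± 36.6 TPM in chow-alternating and 914 ± 51.3 TPM in ketogenic-alternating livers (SD, n = 4). Rps27a, which encodes a small subunit protein fused to ubiquitin, had the widest spread of the family, with a log2 SD of 0.84 over 16 libraries against a median of 0.23. It was at 275, 489, 191 and 544 TPM in chow, 117, 120, 258 and 362 TPM in high-fat, 385, 265, 327 and 403 TPM in chow-alternating and 368, 101, 88.3 and 373 TPM in ketogenic-alternating livers. Its values fell into high and low libraries within groups, and its log2 fold changes, although the lowest of the family in 3 comparisons, did not pass in any.

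**Figure D5:**
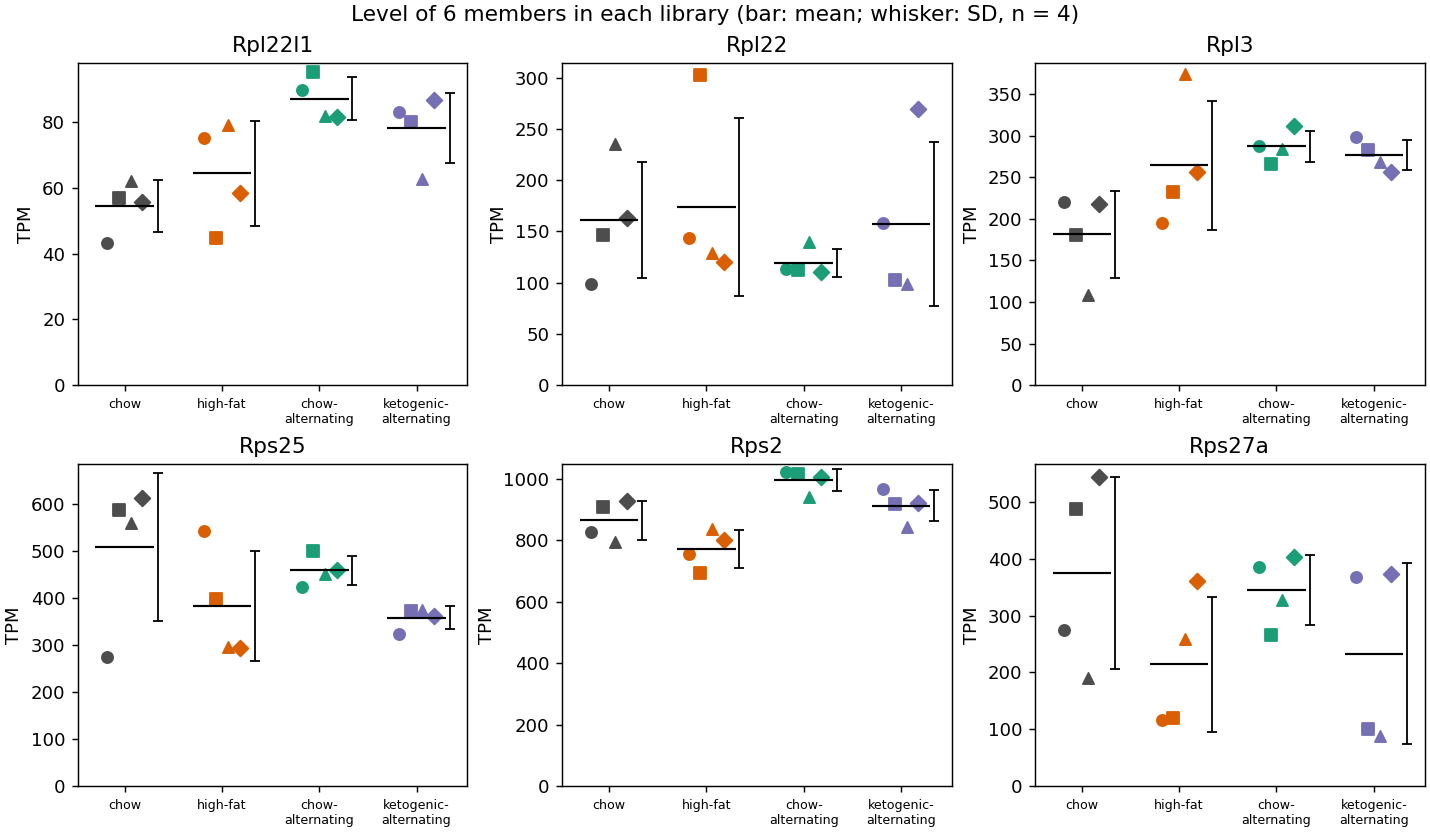
TPM of 6 ribosomal protein genes in each library, by diet group (points, replicates; line, mean; whisker, SD, n = 4). Rpl22l1 lies between 81.5 and 95.2 TPM in the chow-alternating group, above the 4 chow libraries, and Rps25 lies between 323 and 374 TPM in the ketogenic-alternating group, below the 4 chow-alternating libraries.

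For the stalk and 5S rRNA-binding proteins, group means were 478 to 528 TPM for Rplp0, 991 to 1207 TPM for Rplp1, 206 to 236 TPM for Rplp2 and 174 to 187 TPM for Rpl5. For Rpl11 they were 584 ± 57.9 TPM in chow and 496 ± 33.7 TPM in ketogenic-alternating livers (SD, n = 4), with overlapping groups. None of these 5 genes passed in any comparison, and over the 6 comparisons the stalk genes had log2 fold changes between -0.21 and 0.31, both ends being those of Rplp1. Among the other paralogs, Rpl36al was at 399, 441, 430 and 423 TPM in chow and between 268 and 372 TPM in the 12 libraries of the other groups. No chow library overlapped with any of them, with log2 fold changes of -0.36 (adjusted p = 0.349), -0.36 (0.231) and -0.38 (0.103) for the high-fat, chow-alternating and ketogenic-alternating groups. Rps27l, a p53 target, had means of 548 ± 120 TPM in chow and 392 ± 56.7 TPM in ketogenic-alternating livers. Rpl7l1, a nucleolar paralog, and Rps27rt, a copy of Rps27 without introns, did not pass in any comparison.

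Genes that share translational control with the ribosomal proteins, or make and regulate ribosomes, were read from lists. Of 22 elongation factors and other TOP mRNAs, 0 passed in any of the 6 comparisons, with medians between -0.12 in high-fat against chow and 0.09 in chow-alternating against high-fat livers. The most abundant, Eef1a1, which delivers aminoacyl-tRNA, and Tpt1, a translationally controlled tumour protein, had log2 fold changes of 0.06 (SE 0.20) and -0.22 (SE 0.15) in ketogenic-alternating against chow livers. Of 43 ribosome biogenesis genes tested, 0 passed. The most abundant were Npm1, a nucleolar chaperone, and Sbds, a factor of large subunit maturation, with log2 fold changes of -0.27 (SE 0.14) and -0.29 (SE 0.14) in ketogenic-alternating against chow livers. The median of the list was -0.29 in high-fat against chow livers, with 40 below 0, and 0.16 in chow-alternating against high-fat livers, with 38 above 0. In ketogenic-alternating livers the biogenesis genes had a median of 0.13 against chow-alternating livers, where the ribosomal proteins had -0.14 and all genes 0.19. Against high-fat livers the medians were 0.32, 0.01 and 0.21, and against chow 0.03, -0.29 and 0.15. The difference between these lists was not tested.

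Of 23 genes of the mTOR pathway and translation control, Sesn1, a leucine-responsive inhibitor of mTORC1, was called higher in ketogenic-alternating against chow livers, by 0.96 on the log2 scale (SE 0.21, limma adjusted p = 0.0231). In that comparison 3.67% of all genes were called higher, and the median of the list was 0.17 against 0.15 for all genes. No other gene of that list passed in the 6 comparisons. The 78 mitochondrial ribosomal proteins, encoded in the nucleus, had a median of -0.18 in high-fat against chow livers. In ketogenic-alternating livers it was 0.01 against chow and 0.11 against chow-alternating livers, where the cytosolic family was at -0.29 and -0.14 and all genes were at 0.15 and 0.19. Against chow-alternating livers Mrpl50 (0.35, SE 0.08, adjusted p = 0.0444) and Mrpl45 (0.41, SE 0.10, adjusted p = 0.0480), both of the large mitochondrial subunit, were called higher by limma, 2 of 78 genes where 4.31% of all genes were called higher.

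Rps24 was examined by transcript because its last exons are alternatively spliced. The main coding transcript, Rps24-210 of 1613 bases, held 51.2 ± 6.65% of the gene's TPM in chow, 50.4 ± 9.07% in high-fat, 51.2 ± 8.29% in chow-alternating and 49.5 ± 8.03% in ketogenic-alternating livers (SD, n = 4). Of the 5 transcripts that held at least 5%, the non-coding Rps24-203 was listed at 0 in all chow-alternating libraries and at 0, 16.2, 11.46 and 13.7% in the ketogenic-alternating ones. In chow it was at 0, 3.52, 23.6 and 0%, and in high-fat livers at 24.8% in replicate 3 and at 0 in the others. Over 30 exact two-sided permutation tests, all adjusted p were 1.00, and with 4 against 4 libraries the smallest p possible is 0.0286.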

How the data were processed

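RNA-seq libraries were made from liver RNA with an integrity number over 8 and read on an Illumina HiSeq4000, per the labels. HISAT2 on mm10, Ensembl release 96 and RSEM 1.1.17 are given in the series' design text, which also names FPKM as the unit. The deposited values are TPM, since every column has the same total, and were used as such. No depth or counting interval follows from TPM. Values were transformed as log2(TPM + 1), a scale that understates changes of low genes. Genes with at least 1 TPM in 4 of the 8 libraries of a comparison were fitted with limma 3.58.1 (R 4.3.3, intensity trend, no covariates). Benjamini-Hochberg adjustment ran over all genes tested, and calls were made below an adjusted p of 0.05, whatever the fold. In data simulated for high-fat against chow (11057 genes), 2 of 50 changes of 0.5 log2 units were recovered and 38 of 50 of 1 unit, with 6 false calls. Each gene was drawn independently there, without the shared library trends of these data, so these figures need not hold for the real libraries.

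Members and lists were chosen with earlier results of these data known. Named were called members and the extremes of each comparison, the 4 highest and lowest by level, members at the threshold, paralogs, P stalk and 5S-binding genes, the 3 most similar outside genes, and called or most abundant genes of the other lists. Rpsa, Rps10, Rpl28, Rps2, Rpl36a, Rpl35a, Rpl37, Rps29, Rpl38, Rps20, Rpl23, Rpl37a, Rps4x and Rps7 were named after their values were seen. Python 3.11.15 with pandas 2.3.3 was used for summaries, and gene positions are from GENCODE vM21 on GRCm38. Alternatives were another pseudocount, no filter, other scalings, corrections for length, 1 fit over all 16 libraries, a replicate block and leaving out libraries. A result on 1 gene outside the family is not reported here.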

Additional observations from a re-analysis of the deposited data

Results flagged for a closer look

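Among the named genes, a library lay far from the other 3 of its group in 5 cases. Rpl22 was at 303 TPM in high-fat replicate 2, where the other libraries were at 120 to 143 TPM. In chow-alternating livers Rpl22 was at 140 TPM in replicate 3, above 110 to 114 TPM in the others. Rps15a was at 39.8 TPM in chow replicate 4, Rps25 was at 274 TPM in chow replicate 1, below 559 to 612 TPM in the others, and Rps27rt was at 104 TPM in high-fat replicate 2. Over all ribosomal protein genes, 21 of 332 pairs of gene and group had such a library (6.33%). By library, it was 0 to 10.8% of members and 0.457 to 3.19% of other genes. A total over other genes is not given, so the 6.33% is not read as an excess. Chance gives about 1 in 20 for independent values, and the members vary together. Chow replicate 1 was the outlying library for 9 members (10.8%), against 2.63% of other genes. High-fat replicate 2 and chow-alternating replicate 4 were so for 3 members each (3.61%), against 0.915% and 1.40% of other genes. Ketogenic-alternating replicate 1 was so for 0 members, against 3.19% of other genes.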

How the results depend on the processing

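The median of the family kept its sign in every alternative run for 5 of the 6 comparisons, the exception being ketogenic-alternating against high-fat livers (-0.08 to 0.07). For chow-alternating against high-fat livers the median was 0.075 after quantile normalization, and for ketogenic-alternating against chow-alternating livers -0.014 with the length slope as covariate. Brackets after a count of calls give the share of all genes called in the same fit. Calls were 0 in all alternatives for chow-alternating (at most 0.298%) and ketogenic-alternating (at most 0.201%) against high-fat livers. They were 1 for high-fat against chow livers in a fit over all 16 libraries (3.64%). For ketogenic-alternating against chow-alternating livers they were 0 with no filter (1.62%), quantile normalization (2.54%), the slope covariate (0.854%) or all 16 libraries (0.973%). They were 2 with the length trend removed (2.89%), and 0 to 11 when leaving out 1 library (1.49 to 23.0%). For chow-alternating against chow livers they were 0 with no filter (0.0179%), rescaling (1.64%), quantile normalization (1.47%) or all 16 libraries (0.967%). They were 2 with the slope covariate (3.22%), and 0 to 2 when leaving out 1 library (0.298 to 2.25%). For ketogenic-alternating against chow livers they were 3 after rescaling (5.94%), 2 after quantile normalization (7.77%) and 9 with the length trend removed (9.34%). They were 1 with the slope covariate (4.9%), 2 with all 16 libraries (6.39%), and 0 to 30 when leaving out 1 library (1.66 to 14.8%). A combination chosen after seeing the data left out chow replicate 1 with the length trend removed. It gave 2 calls for chow-alternating (3.41%) and 31 for ketogenic-alternating against chow livers (13.2%). High-fat replicate 2 is not part of these comparisons, so leaving it out as well repeated the fit without chow replicate 1. The F test gave 3 with the length trend removed, 1 with the slope covariate and 0 to 4 when leaving out 1 library. The shares of all genes called in these F test fits are not given here, so these counts are not read as a result on the family. The cause of these moves was not tested. The deviations of same-numbered libraries had r from -0.60 to 0.40. Chow-alternating replicates 3 (0.17) and 4 (0.40) were closest to the high-fat library of the same number. Trends of single libraries enter these r, which therefore cannot tell whether the numbers pair the samples. A replicate block gave 0 calls in both comparisons with 1 call. The shares of all genes were 1.65% for ketogenic-alternating against chow-alternating and 1.32% for chow-alternating against chow livers. The block changed no other count of calls. Without mitochondrial and the 20 highest genes the family's share was 5.85, 4.64, 5.17 and 4.46% in chow, high-fat, chow-alternating and ketogenic-alternating livers. The log2 fold change of Rpl22 between the alternating groups, 0.28, was between -0.017 (without ketogenic-alternating replicate 4) and 0.46 (without replicate 3) when leaving out 1 library.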
